A study of Mus musculus with 18 samples.

Results

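The miR-30 family of microRNAs (miRNAs) was followed in cartilage of the mouse knee whose anterior cruciate ligament (ACL) had been torn by load. The family was taken as a list of 9 mature names from the hairpins a to e, each matched to its column in the count table, namely mmu-miR-30a-5p, mmu-miR-30a-3p, mmu-miR-30b-5p, mmu-miR-30b-3p, mmu-miR-30c-5p, mmu-miR-30d-5p, mmu-miR-30d-3p, mmu-miR-30e-5p and mmu-miR-30e-3p. They are 9 of the 1412 mature miRNAs in the table and were chosen by name, and 3 further miRNAs of that name (both 3p strands of miR-30c and miR-30f) were read as relatives. All 9 were among the 428 miRNAs that passed the filter on low counts, and none had fewer than 14 reads in any library. The suffix 5p or 3p gives the side of the hairpin that the mature strand comes from.

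Small RNA libraries were made from femoral condyle cartilage of C57bl6 mice, which were males 12 weeks of age per the methods of the study. ACL rupture was produced by a single 12 N load on the right knee, and cartilage of the injured right knee and of the unloaded contralateral left knee was collected at day 1 (n = 3 libraries each) and day 7 (n = 3 each). Mice that received no load gave the naïve group (n = 6), which the labels place at day 7, so that no naïve group matches day 1. No allele set the groups apart, and buprenorphine, an analgesic, was given at the start of the experiment. Each library is a pool, of 4 mice by the description of the series, whereas the methods name 6 mice in the day 1 arm, 12 in the day 7 arm and 6 naïve mice. A note on the sample scheme gives 4 mice for pools at day 7 and says that left and right knees went into separate pools. If there were 6 naïve mice, as the methods state, 6 pools of more than 1 mouse each must share mice, such as by their left and right knees. By that count n = 6 overstates the number of independent naïve pools, in every SD and p-value that uses them. The p-values measure the spread between these pools, which may be smaller than that between animals.

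miRNAs are short RNAs that guide Argonaute proteins to messenger RNAs, mainly through the seed, which is bases 2 to 8 of the mature strand. One strand of each hairpin is usually retained as the guide and the other is largely degraded as the passenger. In the miR-30 family the 5p strands share a seed and are the usual guides, so the members are thought to act on overlapping targets. The family is abundant in heart, skeletal muscle and kidney, and its members are known as repressors of Runx2 and Smad1 in bone-forming cells, of Snai1 in epithelium and of Dll4 in endothelium. Runx2 is the transcription factor that drives osteoblast and hypertrophic chondrocyte differentiation.

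The mature sequences are shown because the members differ so little that their counts have to be read with that in mind. Of the 9 names, 5 were found in the RefSeq table of GRCm38.p6, and the seed is in capitals, written 5′ to 3′.
miR-30a-5p: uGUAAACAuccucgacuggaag
miR-30c-5p: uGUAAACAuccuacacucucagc
miR-30e-5p: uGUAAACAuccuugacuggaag
miR-30a-3p: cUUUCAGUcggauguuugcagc
miR-30e-3p: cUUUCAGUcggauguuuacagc
The guide strands printed here carry the seed GUAAACA and the passenger strands the seed UUUCAGU. With positions counted from 1 at the 5′ end, miR-30a-5p and miR-30e-5p are identical at 21 of 22 bases and differ by C13U. miR-30a-3p and miR-30e-3p likewise differ only by G18A. miR-30c-5p is further away, with 5 differences from miR-30a-5p over 22 bases (C13A, G14C, G18C, G19U and A20C) and 1 base more in length. The sources do not say how a read that fits more than 1 mature sequence was assigned. A share of the reads of miR-30a and miR-30e could thus have been exchanged or counted in both columns. Outside the family, miR-486a-5p and miR-486b-5p held identical counts. The columns of the members held no identical counts. The ratio of miR-30a-5p to miR-30e-5p CPM ranged from 3.14 to 6.30 over the 18 libraries, with a median of 4.37.

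The hairpins lie in 3 clusters in the GENCODE annotation of GRCm38. Mir30a (chr1:23272269-23272339, plus strand, in no annotated gene) is followed after 19361 bases by Mir30c-2 (chr1:23291701-23291784, plus strand), in an exon of the non-coding RNA Gm27028. Mir30c-1 (chr4:120769534-120769622) and Mir30e (chr4:120772606-120772697) are on the minus strand in an intron of Nfyc, a subunit gene of the CCAAT-binding factor NF-Y, 2983 bases apart and in the orientation of the gene. Mir30b (chr15:68337415-68337510, minus strand, in no annotated gene) and Mir30d (chr15:68341208-68341289, minus strand, in an exon of the non-coding RNA Gm20732) are 3697 bases apart. miR-30c-5p can thus come from both Mir30c-1 and Mir30c-2, which cannot be told apart in its count.

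Total counts per library ranged from 758388 to 4088852, and levels are given as CPM (reads per 1e06 reads) on library sizes scaled by the TMM method. The labels call the cells chondrocytes. The cartilage miRNAs miR-140 and miR-455 were present in every group, with a summed level between 6169 and 10495 CPM in naïve and between 6754 and 9980 CPM in day 7 injured libraries, and 0 of these 4 arms passed the test between them. The libraries also held miRNAs of other cell types. The most abundant miRNA of the table was the muscle miRNA miR-1a-3p, with 13.7% of the counts on average, and the sum of 7 skeletal muscle miRNAs ranged from 55076 to 274732 CPM over all libraries. Day 7 contralateral replicate 1 stood apart, with 25.8% of its counts in that muscle list. The differences of miR-30c-5p from or to its group are given with and without it, and the guides' share of the counts at day 7 is given for each library. In such bulk samples fewer cells of a type and less RNA per cell cannot be told apart.

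The first question was how much of each member the cartilage holds. Adapter ligation differs between sequences in small RNA libraries, so the order of the members is an order of read counts. miR-30d-5p had a mean of 7151 CPM over the 18 libraries (rank 29 of 1412) and miR-30c-5p a mean of 6837 CPM (rank 31). These neighbours did not differ beyond their spread, since miR-30d-5p was the higher of the pair in 8 libraries and miR-30c-5p in 10. miR-30a-5p followed at 4407 CPM (rank 37) and was below miR-30c-5p in 16 of 18 libraries.

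The other guide strands were several-fold lower. miR-30e-5p averaged 1010 CPM (rank 73), below miR-30a-5p in all 18 libraries, and miR-30b-5p averaged 855 CPM (rank 80). This pair too was not ordered, with miR-30e-5p the higher in 11 libraries and miR-30b-5p in 7. Of the passenger strands, miR-30a-3p averaged 709 CPM and miR-30e-3p 559 CPM, close to the lower guides. miR-30b-3p at 50.4 CPM and miR-30d-3p at 16.8 CPM were far lower and rested on 14 to 167 reads per library.

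**Figure D1:**
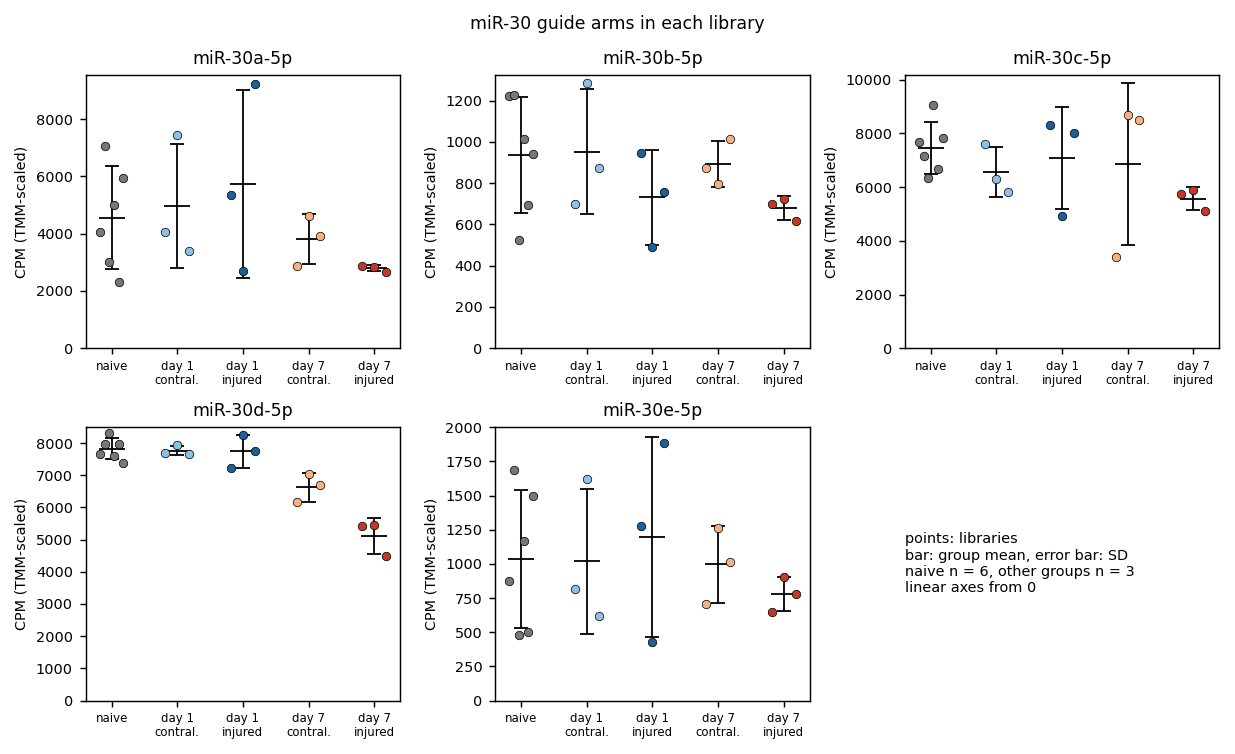
Level of the 5 miR-30 guide strands (CPM, linear axes from 0) in each library of the 5 groups, with the group mean and SD (naïve n = 6, other groups n = 3). The 3 day 7 injured points of miR-30d-5p, between 4480 and 5470 CPM, lie below those of every other group, whereas miR-30a-5p and miR-30e-5p spread widely within the control groups.

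The members differed in how tightly they were held among the naïve libraries. On TMM-scaled CPM the coefficient of variation of miR-30d-5p was 4.23%, and 0 of the 428 tested miRNAs had a lower one. The median over all tested miRNAs was 27.7%. miR-30e-3p (8.19%), miR-30b-3p (10.4%), miR-30c-5p (12.99%), miR-30a-3p (19.5%) and miR-30d-3p (25.8%) were also below that median. At the other end, miR-30a-5p varied by 39.3% and miR-30e-5p by 48.8%, more than 318 and 367 of the tested miRNAs, respectively. These values describe 6 libraries and were not tested. They hold for the TMM scaling, whose factors ran from 0.865 to 1.36 in the naïve libraries. Before scaling, the guides held 2.46% of the counts of naïve replicate 5, and 43.9% of these were miR-30d-5p. In naïve replicate 6 the values were 2.04% and 31.3%, so unscaled shares of miR-30d-5p varied more.

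miR-30d-5p, the most abundant member on average, was lower in injured cartilage at day 7. Its level was 7668, 7968, 8313, 7607, 7983 and 7390 CPM in the naïve libraries (7822 ± 330, SD, n = 6). It was 7702, 7930 and 7654 CPM in day 1 contralateral (7762 ± 148, SD, n = 3) and 7230, 8249 and 7757 CPM in day 1 injured cartilage (7745 ± 509, SD, n = 3). These 3 groups occupied the same range. At day 7 the contralateral libraries held 7040, 6691 and 6155 CPM (6629 ± 446, SD, n = 3), and the injured libraries 5427, 5470 and 4480 CPM (5126 ± 559, SD, n = 3). On this TMM scaling neither day 7 group overlapped with the naïve libraries, and the injured libraries lay below all contralateral ones. Before scaling, the contralateral and naïve libraries overlapped. In day 7 contralateral replicate 2 the guides held 2.10% of the counts, and 31.4% of these were miR-30d-5p. In naïve replicate 6 both values were lower, at 2.04% and 31.3%.

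The comparison of day 7 injured with naïve cartilage asks which members change within a week of injury. miR-30d-5p was 1.54-fold lower, with a log2 fold change of -0.62 ± 0.15 (SE; 95% interval -0.93 to -0.31; limma-voom adjusted p = 0.00388), and had rank 48 by p among the 428 miRNAs. It was called in 17 of 18 fits that left out 1 library. Without day 7 injured replicate 3, which has its lowest level, the difference was -0.50 with an adjusted p of 0.0698 (limma-voom). Of the 5 erythroid miRNAs, all of them detected, miR-486a-5p and miR-486b-5p held identical counts and were read as 1 measurement. The summed level of the resulting 4 lay between 5984 and 7924 CPM in naïve and between 3080 and 4149 CPM in day 7 injured libraries. By the test 1 of 4 was lower, namely miR-486a-5p (log2 difference -1.22, limma-voom adjusted p = 0.000673). Its mean went from 4977 to 2150 CPM, so the sum mostly follows this miRNA. The others were not called, namely miR-144-5p (-0.46, limma-voom adjusted p = 0.409), miR-451a (-0.25, 0.723) and miR-144-3p (-0.01, 0.988). The part of the erythroid sum in the fall of miR-30d-5p was not tested.

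miR-30d-5p was the only member called of the 9 in this comparison, whereas 3.74% of all tested miRNAs were lower and 14.5% higher. One member was below an unadjusted p of 0.05, against 115 of the 428 miRNAs. The fitted differences of the members ran from -0.62 to 0.07 with a median of -0.26, and 8 of 9 were below 0. The median over all tested miRNAs was -0.00. The libraries did not overlap for 2 members, miR-30d-5p and miR-30c-5p, both lower in injured cartilage, and 8.64% of all tested miRNAs were lower in this way.

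miR-30c-5p, the guide next in abundance and the member best known as a Runx2 repressor, ranged from 6324 to 9053 CPM in naïve cartilage, with a median of 7428. The day 7 injured libraries held 5735, 5895 and 5096 CPM, all below the naïve range. The fitted log2 difference was -0.42 ± 0.26 (SE), which did not pass (limma-voom adjusted p = 0.335). In day 7 contralateral cartilage, replicates 2 and 3 held 8692 and 8506 CPM, whereas replicate 1, the library with the highest muscle share, held 3394 CPM, the lowest miR-30c-5p level of the study.

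miR-30a-5p had the same fitted size as miR-30d-5p but far more spread. It ranged from 2310 to 7056 CPM in naïve cartilage with a median of 4540, and from 2691 to 9214 CPM in day 1 injured cartilage. The day 7 injured libraries lay close together at 2889, 2831 and 2669 CPM, inside the lower end of the naïve range. The log2 difference from naïve was -0.62 ± 0.37 (SE; 95% interval -1.39 to 0.15; limma-voom adjusted p = 0.321).

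The lower guides did not pass either. miR-30b-5p, which shares a cluster with miR-30d-5p, ranged from 526 to 1226 CPM in naïve cartilage and was 699, 725 and 615 CPM in day 7 injured cartilage, with a log2 difference of -0.41 ± 0.28 (SE; limma-voom adjusted p = 0.393). miR-30e-5p ranged from 481 to 1689 CPM in naïve cartilage and was 651, 902 and 783 CPM in day 7 injured cartilage. Its log2 difference was -0.26 ± 0.45 (SE; limma-voom adjusted p = 0.752). In both, the injured libraries fell within the naïve range.

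**Figure D2:**
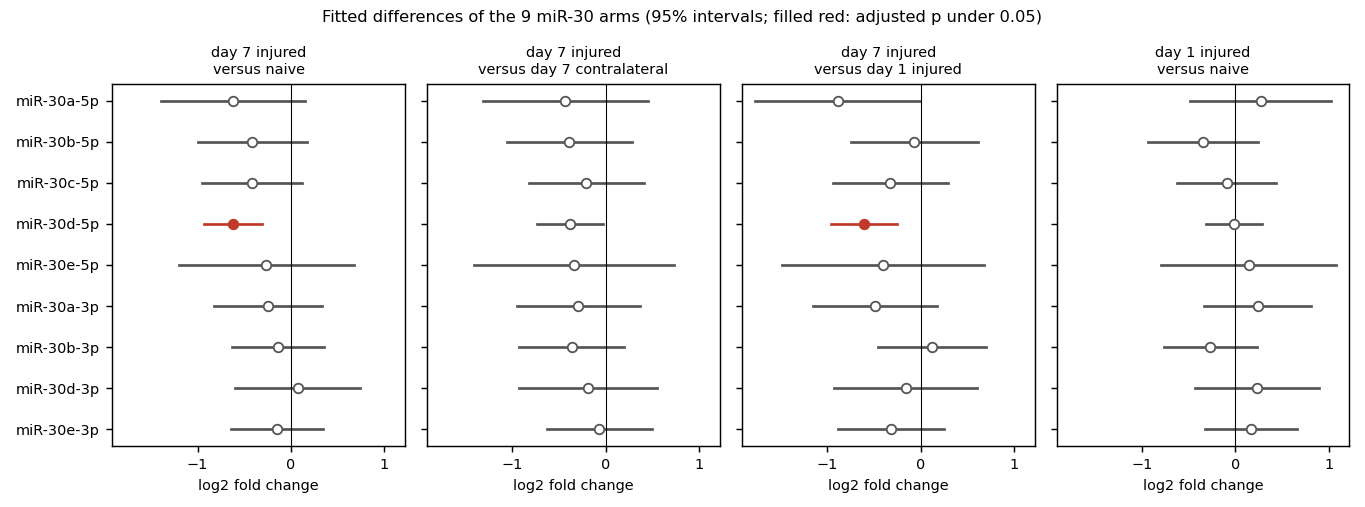
Log2 fold change of the 9 miR-30 arms with its 95% interval in 4 comparisons, by limma-voom, with filled red points for an adjusted p under 0.05. miR-30d-5p alone is filled, at -0.62 against naïve and -0.60 against day 1 injured cartilage, and the intervals of miR-30a-5p and miR-30e-5p are the widest of the guides.

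Against the contralateral knees of the same day, a comparison that shares its injured libraries with the one above, no member was called (0 of 9 by limma-voom, edgeR's quasi-likelihood test and DESeq2). Over all tested miRNAs, 0.935% were lower and 13.8% higher by limma-voom. The number lower was 4 by limma-voom, 11 by edgeR, 13 by DESeq2 and 0 by limma-voom with library totals only. At an unadjusted p under 0.05 stood 1 member, miR-30d-5p, and 99 of all miRNAs. All 9 fitted log2 differences were below 0, between -0.43 and -0.07, with a median of -0.34 against -0.05 over all miRNAs. With the muscle sum as a covariate 4 of 9 were below 0 and the median was 0.059. miR-30d-5p differed by -0.38 ± 0.17 (SE; 95% interval -0.74 to -0.03; limma-voom adjusted p = 0.163), and its libraries did not overlap. miR-30b-5p, at 872, 794 and 1013 CPM in the contralateral libraries, was the other member without overlap, with a difference of -0.39 (limma-voom adjusted p = 0.517). Over all tested miRNAs, 9.11% lay lower without overlap.

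The fitted values of the remaining guides changed when 1 contralateral library was left out or when the muscle sum was a covariate. miR-30c-5p differed by -0.21 from the contralateral knees (limma-voom adjusted p = 0.734), by -0.57 without contralateral replicate 1 (adjusted p = 0.0902) and by 0.067 without contralateral replicate 2. miR-30a-5p differed by -0.43 and miR-30e-5p by -0.34, and both values turned positive, to 0.085 and 0.28, in a fit with the muscle sum as a covariate. So did the passenger strands miR-30a-3p (0.075), miR-30d-3p (0.12) and miR-30e-3p (0.059). None of these passed the test in any direction. The muscle sums of the day 7 injured libraries (69602 to 133893 CPM) all lay below those of the contralateral libraries (136653 to 249759 CPM). In this comparison the values with the covariate rest on a slope shared by all groups. Muscle level and injury cannot be told apart from these 2 groups alone.

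The injured knees at day 7 were also set against those at day 1, to separate the time points. miR-30d-5p was 1.52-fold lower at day 7 (log2 difference -0.60 ± 0.17, SE; limma-voom adjusted p = 0.0165), and its libraries did not overlap. It was the only member called of 9, against 3.5% of all miRNAs lower and 12.1% higher, and the only one without overlap, against 15.7% of all. The call depended on which libraries were used. It was kept in 7 of 18 fits that left out 1 library. It was lost without naïve replicate 5, day 7 contralateral replicate 2 or any 1 library of the day 1 contralateral, day 1 injured and day 7 injured groups, and the fitted value ran from -0.60 to -0.39. miR-30a-5p had the larger fitted difference, -0.89 ± 0.42 (SE; limma-voom adjusted p = 0.179), and miR-30c-5p differed by -0.32 (adjusted p = 0.535). The 9 values ran from -0.89 to 0.12, with 8 below 0 and a median of -0.32 against -0.07 over all miRNAs.

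At day 1 no member was distinguishable from either control. Against naïve cartilage the fitted log2 differences of the members ran from -0.35 to 0.27, and against the day 1 contralateral knees from -0.38 to 0.15. In each of these comparisons limma-voom, edgeR's quasi-likelihood test and DESeq2 called 0 of 9 members and 0% of the 428 miRNAs, and an unadjusted p under 0.05 was found for 0 members and 8 miRNAs. The smallest adjusted p of a member was 0.992 against naïve cartilage. With 3 injured libraries, the 95% intervals of the members against naïve cartilage reached down to -0.93 and up to 1.08.

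The uninjured knees of loaded mice were compared with naïve knees to ask whether the other leg changed. At day 1 the members differed by between -0.18 and 0.22 on the log2 scale, with 0 of 9 members and 0% of all miRNAs called and 0 members and 4 miRNAs below an unadjusted p of 0.05. At day 7 they differed by between -0.24 and 0.26, again with 0 of 9 members and 0% of all called by limma-voom, 0 members called by edgeR or DESeq2, and 0 members and 23 miRNAs below an unadjusted p of 0.05. DESeq2 called 1 miRNA of the 428. Without day 7 contralateral replicate 1 the sign turned for 3 members, from -0.21 to 0.19 for miR-30c-5p, from 0.22 to -0.046 for miR-30b-3p and from -0.084 to 0.21 for miR-30e-3p. On the TMM scaling, miR-30d-5p in the day 7 contralateral knees lay between the naïve and the injured libraries without overlap with either. As unscaled shares of counts, the contralateral and naïve libraries overlapped. Its difference from naïve was -0.24 ± 0.14 (SE; limma-voom adjusted p = 0.675), and 0.935% of all miRNAs were lower without overlap in this comparison.

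The injury effect at day 7, injured minus contralateral, was then tested against that at day 1. All 9 members had a negative difference of effects, between -0.56 and -0.01 on the log2 scale, but 0 of 9 passed by limma-voom, edgeR or DESeq2, and the smallest adjusted p of a member was 0.494. Of all miRNAs, 6.78% had a higher effect at day 7 and 0% a lower one. Library totals left 6 of 9 members below 0. The muscle sum as a covariate left 5 of 9, with a median of -0.04 in place of -0.29. No member and 70 miRNAs had an unadjusted p under 0.05. For miR-30d-5p the difference of effects was -0.38 ± 0.24 (SE). It was therefore not shown that injury changed any member more at day 7 than at day 1.

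Because the guide strands share a seed, their summed share of a library's reads was also followed. The 5 guides held 2.31% ± 0.14 (SD, n = 6) of the counts in naïve libraries, with a range of 2.04% to 2.46%. They held 2.13% ± 0.06 (SD, n = 3) in day 1 contralateral and 2.05% ± 0.08 (SD, n = 3) in day 1 injured libraries. At day 7 the share was 1.45%, 2.10% and 2.03% in the contralateral and 1.48%, 1.57% and 1.29% in the injured libraries, or 1.45% ± 0.14 (SD, n = 3). All 3 injured libraries were below every naïve and every day 1 library, while contralateral replicate 1, with its high muscle share, lay among them. Without the 7 muscle miRNAs in the denominator the shares were 2.69% in naïve, 2.25% in day 7 contralateral and 1.61% in day 7 injured libraries, and contralateral replicate 1, at 1.95%, was then above the injured libraries, which reached 1.70%. These shares were described and not tested.

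**Figure D3:**
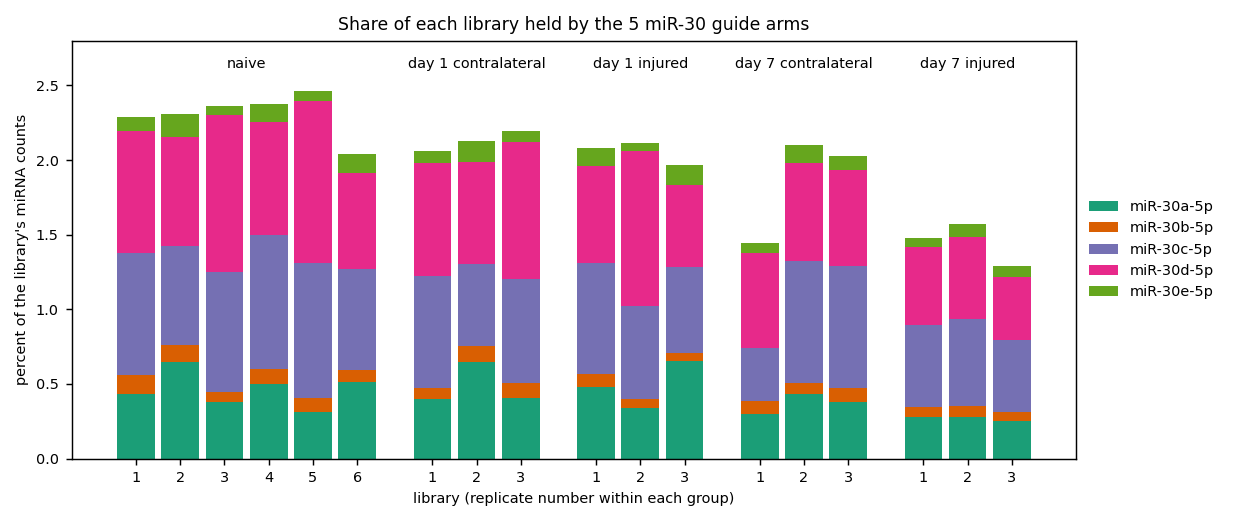
Percentage of each library's miRNA counts held by the 5 miR-30 guide strands, as stacked bars from 0 for each of the 18 libraries. The bars of the day 7 injured libraries reach 1.29% to 1.57%, against 2.04% to 2.46% in naïve libraries. The segments differ in proportion between single libraries, with miR-30d-5p from 28.1% to 49.2% of the guides in day 1 injured libraries.

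Within the family the mean proportions were similar between groups. In naïve libraries miR-30d-5p made up 36.5% of the guide reads, miR-30c-5p 34.4%, miR-30a-5p 20.3%, miR-30e-5p 4.56% and miR-30b-5p 4.24%. In day 7 injured libraries the shares were 34.2%, 37.3%, 18.7%, 5.22% and 4.54% in the same order. The proportions moved more between libraries of 1 group than between these groups. Among the naïve libraries miR-30a-5p ranged from 12.7% to 28.1% of the guides and miR-30d-5p from 31.3% to 44.6%. The day 7 injured libraries were more alike, with miR-30c-5p between 37.2% and 37.4%.

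The passenger strands were then compared with their guides, since both come from 1 hairpin. The log2 ratio of the 5p to the 3p count was highest for miR-30d, with a mean of 8.74 over the 18 libraries (427-fold), a ratio above that of 95.5% of the 111 hairpins with both arms tested. It was 4.05 (16.6-fold) for miR-30b and 2.56 (5.92-fold) for miR-30a. For miR-30e it was 0.74 (1.67-fold), and in 2 libraries, naïve replicate 3 and day 1 injured replicate 2, the 3p strand was the more abundant. The 4 hairpins thus spanned a wide range of ratios.

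**Figure D4:**
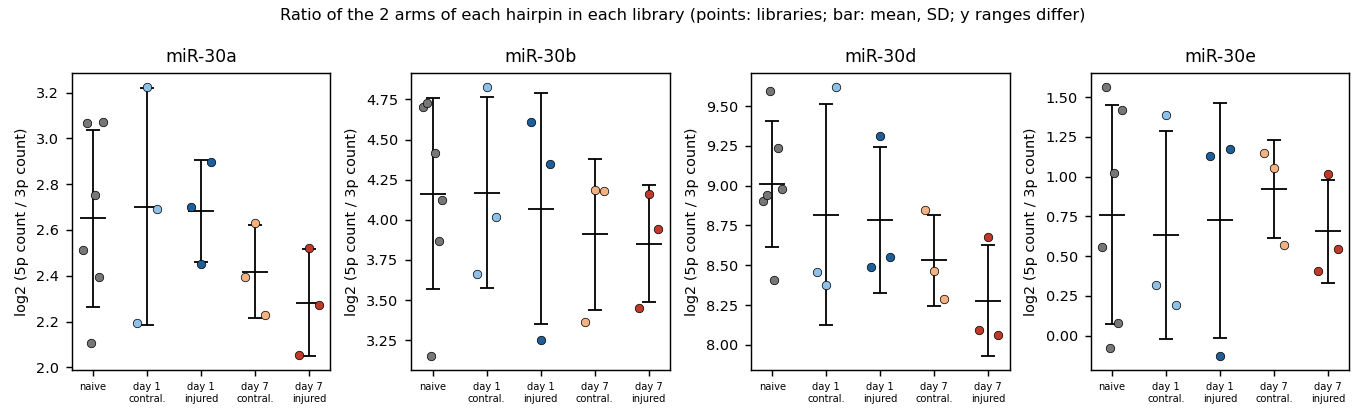
Log2 ratio of the 5p to the 3p count of the 4 hairpins with both arms among the members, per library, with the group mean and SD (naïve n = 6, other groups n = 3; y ranges differ and do not start at 0). The miR-30d ratio has a mean of 9.01 in naïve libraries and between 8.06 and 8.68 in day 7 injured libraries, and the groups overlap in all 4 panels.

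None of the 4 passenger strands was called in day 7 injured against naïve cartilage. The log2 differences were -0.25 for miR-30a-3p, -0.14 for miR-30b-3p, 0.07 for miR-30d-3p and -0.15 for miR-30e-3p, with limma-voom adjusted p of 0.598, 0.748, 0.896 and 0.735. The sign for miR-30d-3p turned to -0.046 when libraries were scaled by their totals alone. miR-30e-3p was 492, 445 and 537 CPM in the injured libraries, against 475 to 592 CPM in naïve libraries. The fall of miR-30d-5p was therefore set against its own passenger in the ratio. That ratio averaged 9.01 ± 0.39 (SD, n = 6) over the naïve libraries. Its mean over the day 7 injured libraries was 8.28 ± 0.35 (SD, n = 3). They differed by -0.71 ± 0.34 (SE; limma adjusted p = 0.477). miR-30d-3p rests on 14 to 76 reads per library.

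The other ratios moved less. The difference from naïve was -0.37 for miR-30a, -0.29 for miR-30b and -0.11 for miR-30e, with limma adjusted p of 0.784, 0.827 and 0.961. Of the 111 hairpins, 4.5% were called in this comparison, 0% in day 7 injured against contralateral and 1.8% in day 7 against day 1 injured cartilage, and 0 of the 4 miR-30 ratios in any of the 3. At an unadjusted p under 0.05, limma gave 0 of these ratios in each comparison and 11, 8 and 10 of the 111 hairpins. The miR-30 ratios differed by between -0.26 and -0.04 in the second comparison and between -0.47 and -0.08 in the third.

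The family is known for its abundance in muscle, and the muscle miRNAs varied widely between libraries, so each member was related to the summed muscle level in the same fit across all miRNAs. The muscle list held 7 miRNAs, 6 of them tested and none at 0 in every library, and its sum was 67482 to 198843 CPM in naïve, 104039 to 179813 in day 1 contralateral, 55076 to 274732 in day 1 injured, 136653 to 249759 in day 7 contralateral and 69602 to 133893 in day 7 injured libraries. Of the 9 members, 3 rose with it. Per doubling of the muscle sum the log2 level of miR-30a-5p rose by 0.64 ± 0.16 (SE), that of miR-30a-3p by 0.46 ± 0.12 and that of miR-30e-5p by 0.76 ± 0.20, with limma-voom adjusted p of 0.0106, 0.0123 and 0.0136. Over all tested miRNAs 11% rose and 7.48% fell with the muscle sum. The 6 tested muscle miRNAs are part of that sum and were counted here, so the 11% can include miRNAs set against themselves. This term was added after the levels had been seen.

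The other members did not pass. The slope of miR-30b-5p was 0.35 (limma-voom adjusted p = 0.0960), that of miR-30c-5p 0.12 and that of miR-30d-5p -0.06 (adjusted p = 0.609 for both). The calls of all 3 members that rose were lost without day 1 injured replicate 2, the library with the lowest muscle sum in CPM. The slopes were then 0.58, 0.38 and 0.61, with limma-voom adjusted p of 0.114, 0.155 and 0.189 for miR-30a-5p, miR-30a-3p and miR-30e-5p. The calls of miR-30a-3p and miR-30e-5p were also lost without day 1 injured replicate 3, the library with the highest muscle sum in CPM. Without day 7 contralateral replicate 1 the slopes of the 3 members were at their highest.

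With the muscle sum as a covariate, miR-30d-5p in day 7 injured cartilage differed by -0.65 from naïve (limma-voom adjusted p = 0.000809), by -0.44 from the day 7 contralateral knees (adjusted p = 0.0618) and by -0.64 from day 1 injured knees (adjusted p = 0.00383). For miR-30d-5p the differences with the term were as large as without it. Between the day 7 injured and contralateral libraries the muscle sums did not overlap, so muscle level and injury cannot be told apart there. The value of miR-30e-5p against naïve went from -0.26 to 0.022.

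**Figure D5:**
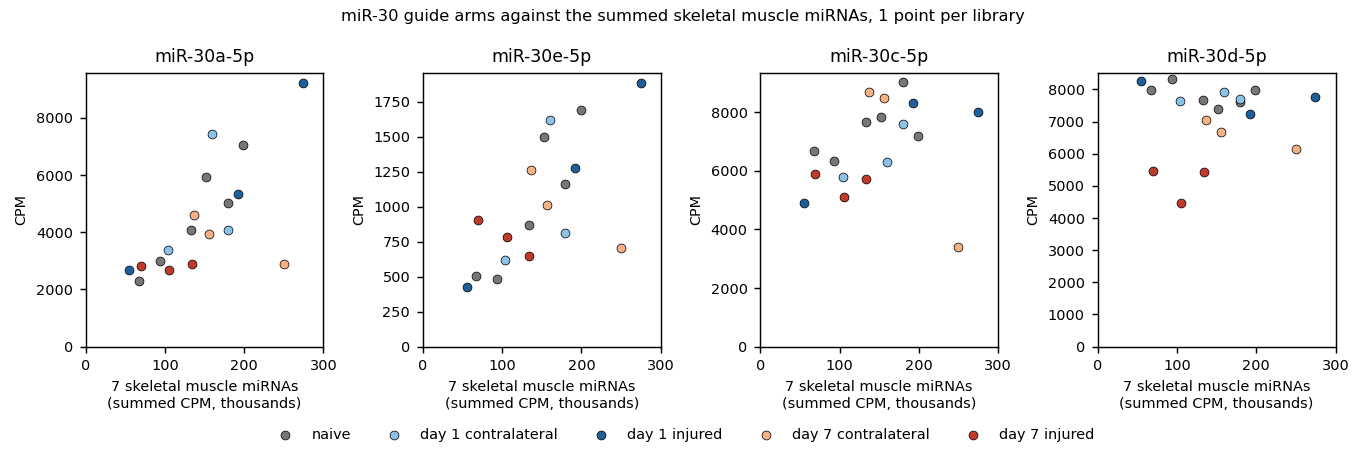
Level of 4 miR-30 guide strands (CPM) against the summed level of 7 skeletal muscle miRNAs (kCPM) in each of the 18 libraries, coloured by group, on linear axes from 0. miR-30a-5p and miR-30e-5p rise with the muscle sum apart from day 7 contralateral replicate 1. The day 7 injured points of miR-30d-5p lie below all others, and cover muscle sums of 69602 to 133893 CPM only.

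Relatives outside the 9 members were read for comparison. The 3p strands of the miR-30c hairpins and miR-30f, which is read from the strand opposite Mir30e, have other seeds.
miR-30c-1-3p: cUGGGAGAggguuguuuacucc
miR-30c-2-3p: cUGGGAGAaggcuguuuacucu
miR-30f: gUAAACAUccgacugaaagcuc
Since both miR-30c hairpins give the same guide, these strands are what sets their reads apart. miR-30c-2-3p, from the cluster of Mir30a, stood at 136 ± 21.9 CPM (SD, n = 6) in naïve cartilage and miR-30c-1-3p, from the Nfyc intron, at 19.8 ± 2.96 CPM (SD, n = 6). miR-30c-2-3p was 83.2 ± 31.5 CPM (SD, n = 3) in day 7 injured cartilage, with a log2 difference from naïve of -0.79 (limma-voom adjusted p = 0.0807). miR-30f was 68.4 CPM in naïve cartilage. By limma-voom 0 of these 3 was called in any comparison. miR-384-5p, which shares the seed GUAAACA, had 0 to 3 reads per library and was not tested.

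Since Runx2 repression is the role of miR-30c-5p most often described in skeletal cells, the other miRNAs described as Runx2 repressors were read as a list. Of 11, 8 were tested. In day 7 injured against naïve cartilage 1 was higher and 0 lower by limma-voom, with a median log2 difference of -0.29 over the list and -0.00 over all miRNAs. The one called was miR-34c-5p, a p53-responsive miRNA, which was 25.2 to 54.2 CPM in naïve and 266 to 361 CPM in day 7 injured libraries, 7.25-fold higher (limma-voom adjusted p = 5.60e-07). miR-30c-5p is a member of this list and did not pass.

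Finally, the miRNAs whose pattern over the 18 libraries was most like the mean of the 5 guides were listed by the root mean square of the difference between centred log2 levels. The 5 nearest outside the family were miR-186-5p (0.23), miR-708-5p (0.27), miR-185-5p (0.27), miR-24-1-5p (0.27) and let-7g-5p (0.28), against a median of 0.59 over all tested miRNAs. Of the family, miR-30a-3p was nearest at 0.24 and miR-30b-3p farthest at 0.53. In day 7 injured against naïve cartilage miR-708-5p was lower by a log2 difference of -0.97 (limma-voom adjusted p = 0.0183), and the other 4 were not called, with differences between -0.40 and 0.13. The call of miR-708-5p rested on the injured libraries, with an adjusted p of 0.0608 when replicate 1 was left out and of 0.178 when replicate 3 was.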

How the data were processed

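The authors trimmed reads with Trim Galore 0.6.6, checked them with FastQC 0.11.9, aligned them to mature miRBase sequences with Bowtie 1.3.0 and counted alignments with SAMtools 1.12, in an nf-core pipeline set to GRCm38. They deposited raw counts, 1 row per library and 1 column per mature miRNA, with no normalisation. Each row was assigned to the sample whose title carries its library number (the prefixes of the 2 names are not the same). Shared pools are not labelled. The fits therefore take every library as independent, and the replicates, numbered in accession order, pair nothing.

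Counts were analysed in R 4.3.3. miRNAs were kept with filterByExpr of edgeR 4.0.16 (minimum count 10, minimum total 15), scaled by TMM, and fitted with limma-voom 3.58.1 over all 18 libraries with 1 mean per group. The 8 contrasts were each adjusted by Benjamini-Hochberg over 428 miRNAs, with a threshold of 0.05. Arm ratios were log2 of 5p over 3p counts with 0.5 added to each, fitted by limma with voom weights over 111 hairpins in 3 contrasts. Shares were described only. The smallest library holds 758388 counts, in which 3 reads correspond to 3.96 CPM, and PCR copies are not independent molecules.

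The members and all lists were chosen with earlier results of these data known, and so was the rule for named miRNAs (the 9 members, their relatives by name or seed, called miRNAs of the Runx2 list, and the 5 outside miRNAs nearest to the mean guide pattern). The muscle covariate and the share without muscle miRNAs were added after the data had been seen. Leukocyte and vascular lists were also summed. In naïve and day 7 injured libraries the leukocyte sum was 9344 ± 1674 (SD, n = 6) and 8751 ± 738 CPM (SD, n = 3), with 1 of 6 lower, and the vascular sum 66347 ± 14872 (SD, n = 6) and 78266 ± 3727 CPM (SD, n = 3), with 0 of 4 called by limma-voom. The steps were tested on simulated counts for day 7 injured against naïve libraries. Of 195 miRNAs changed 4-fold among 414, 187 were recovered (95.9%) with 2 false calls. Of 61 arm ratios changed at least 4-fold among 108 hairpins, 47 were recovered (77.0%) with 0 false calls. A ratio changed by more than 4-fold where both arms changed in opposite directions. Changes as small as those of the members, such as 1.54-fold for miR-30d-5p in day 7 injured against naïve cartilage, were not simulated. Alternatives used DESeq2 1.42.0, edgeR's quasi-likelihood test, other scalings and filters, library weights, fits of the compared groups only and fits without each library. Figures used Python 3.11.15 and matplotlib 3.10.9.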

Additional observations from a re-analysis of the deposited data

Results flagged for a closer look

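The level of miR-30a-3p in naïve cartilage had 1 library far from the others. Naïve replicate 5 held 439 CPM, whereas the other 5 naïve libraries held between 696 and 842 CPM, so that its gap was 0.6372 of the whole range, just above Dixon's 95% critical value for 6 libraries. The same library had the lowest miR-30a-5p level of the naïve group, at 2310 CPM, and the lowest muscle sum, at 67482 CPM, and its part in the gap was not tested. Of 19 quantities checked in the naïve libraries this was the 1 that passed, where chance passes about 1 in 20.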

How the results depend on the processing

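No paired analysis was possible because the labels give no replicate numbers and do not say which libraries came from the same pool. Over the 72 member values of the 8 comparisons and 27 alternatives (1944 values), 1706 kept their direction and their side of the threshold, 15 were no longer called and 6 were newly called. In 217 the sign changed in values called under neither, of which 197 were under 0.2 on the log2 scale. The cause of the changes below was not tested.

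Against naïve cartilage, 4 members were called at day 7 with library quality weights in place of 1, namely miR-30a-5p (-0.76, limma adjusted p = 0.0204), miR-30b-5p (-0.54, 0.0364) and miR-30c-5p (-0.46, 0.0180) beside miR-30d-5p. Over all 428 miRNAs these weights gave 80 higher and 55 lower in place of 62 and 16. Fits that left out 1 library called between 0 and 1. Against day 1 injured cartilage the count went from 1 to 0 with library totals only (miR-30d-5p -0.53, adjusted p = 0.251), to 0 with no filter (adjusted p = 0.102), to 0 with only the groups compared (adjusted p = 0.0919), to 3 with quality weights (68 higher and 41 lower over all miRNAs, in place of 52 and 15), and to between 0 and 1 without 1 library. In these last fits the median of all miRNAs also moved, between -0.07 and 0.11, and miR-30d-5p relative to it ran from -0.61 to -0.49. miR-30a-5p there was called without day 1 injured replicate 2 (-1.22, adjusted p = 0.0487).

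Library totals alone moved the median of all miRNAs by -0.12 in day 7 injured against naïve cartilage, with miR-30d-5p at -0.63 relative to the median. The sign turned for miR-30d-3p against naïve (-0.046 with library totals and -0.14 with quality weights), and with the muscle covariate for miR-30e-5p against naïve (0.022) and for miR-30a-5p (0.085), miR-30a-3p (0.075), miR-30d-3p (0.12), miR-30e-5p (0.28) and miR-30e-3p (0.059) against the contralateral knees. Without 1 library, miR-30c-5p against the contralateral knees ran from -0.57 to 0.067 and the miR-30e arm ratio against naïve from -0.29 to 0.056. Arm ratios were called in 0 of 252 values under alternatives (limma), with 10 sign changes. miR-30c-2-3p against naïve was called in 3 of 27 alternatives and ran from -0.98 to -0.52.

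With another denominator the share of the 5 guides rose in every group. Without miR-1a-3p it was 2.67% in naïve, 2.48% in day 1 contralateral, 2.40% in day 1 injured, 2.23% in day 7 contralateral and 1.60% in day 7 injured libraries. Without the muscle list it was 2.69%, 2.49%, 2.41%, 2.25% and 1.61% in the same order. The depth behind miR-30d-3p was 14 to 76 reads per library and that behind miR-30b-3p 46 to 167.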
